A study of Mus musculus with 3008 samples.

Results

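The cells described here are Foxp3+ regulatory T cells (Tregs) of the colon that carried transcripts of Gata3, of Il1rl1 (the gene of ST2), or of both. They were chosen by counts of unique molecular identifiers (UMIs, which count captured transcripts) among colon cells with at least 1000 UMIs. A member held 2 or more UMIs of Gata3 and Il1rl1 together, at most 1 UMI of Ccr7 and Bcl6 together, and fewer than 5 UMIs of Fosb, Hspa1a, Hspa1b and Atf3 together. This gate took 22.3% of the 2354 such colon cells, out of 3008 cells in the whole series. In the library called colon 1 it took 22.5% (19.2 to 26) of 610 cells, and in colon 2 it took 22.3% (20.4 to 24.3) of 1744. Intervals in parentheses are 95% intervals that cover counting error only.

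The study sorted live DAPI- TCRb+ CD4+ GFP+ cells from male B6 Foxp3-Ires-Gfp mice aged 7 months, whose green fluorescent protein reports Foxp3, and read single cells by inDrops, a droplet method with barcoded primers. Colon 1 and colon 2 were libraries of the gut's lamina propria, which lies beneath its epithelium, released with collagenase and dispase, and 1 further library held mechanically dissociated spleen cells. All cells shared the reporter and the sort, and the labels name no treatment. They name no animal either, so each tissue counts as 1 sample, no p-value was computed, and the colon libraries are shown apart. For colon 2 the title gives replicate 2 and another label replicate 1b, so whether the colon libraries came from separate animals is not known.

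GATA3 is the transcription factor of type 2 immunity, and ST2 is the receptor of interleukin-33, an alarm cytokine that epithelial and stromal cells release when damaged. Tregs with both proteins are common in the gut, where they are known for answering interleukin-33 and for repair factors such as amphiregulin, and many of them carry Helios and KLRG1. ST2 pairs with the accessory chain IL1RAP and signals through MYD88 and the IRAK kinases to NF-kB.

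The gated cells of colon 1, colon 2 and spleen summed to 300145, 903139 and 173442 UMIs. Their median cell held 1811, 2181 and 1999 UMIs, against 1779, 2002 and 1824.5 in the other cells of those libraries, so the gated cells were slightly deeper. Colon 1 and colon 2 shared 9 cell barcodes, and 1 of these barcodes was gated in both. Spleen shared 5 barcodes with colon 1 and 11 with colon 2. Colon 1 and colon 2 differed in sequencing, with a median of 49.8 and 20.6 mapped reads per UMI. No cell type that lacks these genes was at hand, so the level that free RNA gives in droplets was not measured.

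The genes that set the gate describe the members and are no finding. Gata3 (in mm10 on chromosome 2, 9857078 to 9890034, minus strand) had a level of 1585.9 CPM in the gated cells of colon 1 and 1529.1 in those of colon 2, where CPM is UMIs of a gene per 1000000 UMIs of the same cells. Il1rl1 (chromosome 1, 40429570 to 40465415, plus strand) stood at 996.2 and 779.5 CPM. A gated cell held a median of 2 Gata3 UMIs in colon 1 and 3 in colon 2, up to 14 and 18, and a median of 1 Il1rl1 UMI in each, up to 10. Both transcripts were found in 46% and 47% of the gated cells of colon 1 and colon 2, Gata3 alone in 39.4% and 38.8%, and Il1rl1 alone in 14.6% and 14.1%. Foxp3, the lineage transcription factor by which the cells were sorted, had a UMI in 32.1% (24.4 to 40.6) and 28.5% (24.1 to 33.3) of the gated cells after each cell was thinned to 1000 UMIs.

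The label was set beside the markers that came with it and that the gate did not use. They were chosen with earlier results of these data known, so they describe the label and are no separate check of it. Of Klrg1, Penk, Areg and Ikzf2, the first 3 were at least 2-fold higher in the gated than in the other colon cells of both libraries, and Ikzf2 was higher in both but short of 2-fold. Klrg1, an inhibitory receptor gene of differentiated lymphocytes (chromosome 6, 122270596 to 122282882, minus strand), stood at 1469.3 CPM in the gated cells of colon 1 and 1990.8 in those of colon 2. In the other colon cells it stood at 443.4 and 632.7 CPM, and in gated and other spleen cells at 357.5 and 162.2. The gated cells were the higher ones in each of the 3 libraries, and the highest level was that of colon 2. Gated over other cells gave log2 ratios of 1.73 (1.53 to 1.92) for colon 1 and 1.65 (1.56 to 1.75) for colon 2.

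Penk, the gene of proenkephalin, a precursor of opioid peptides (chromosome 4, 4133531 to 4138819, minus strand), stood at 726.3 and 1283.3 CPM in gated cells and at 313.3 and 193.1 in other colon cells. Its log2 ratio differed between the libraries, at 1.21 (0.95 to 1.47) in colon 1 and 2.73 (2.59 to 2.88) in colon 2. The other colon cells include cells rich in Gata3 and Il1rl1 that failed another limit of the gate. In colon 1, 2 such cells over the limit on Fosb and heat-shock genes held 92 Penk UMIs. Against colon cells that met the other limits but held fewer than 2 UMIs of Gata3 and Il1rl1, the ratio was 2.12 and 3.51. Areg, which encodes amphiregulin (chromosome 5, 91139599 to 91148432, plus strand), stood at 363.2 and 298.96 CPM in gated cells against 158.7 and 109.5 in the others, at log2 ratios of 1.19 (0.82 to 1.56) and 1.45 (1.21 to 1.69). Ikzf2, which encodes Helios (chromosome 1, 69531214 to 69687245, minus strand), stood at 752.97 and 952.2 CPM against 553.5 and 508.5, at log2 ratios of 0.44 (0.21 to 0.67) and 0.91 (0.78 to 1.03). Unlike the other markers, Ikzf2 was no lower in spleen, at 1003.2 CPM in gated and 727.8 in other spleen cells.

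**Figure D1:**
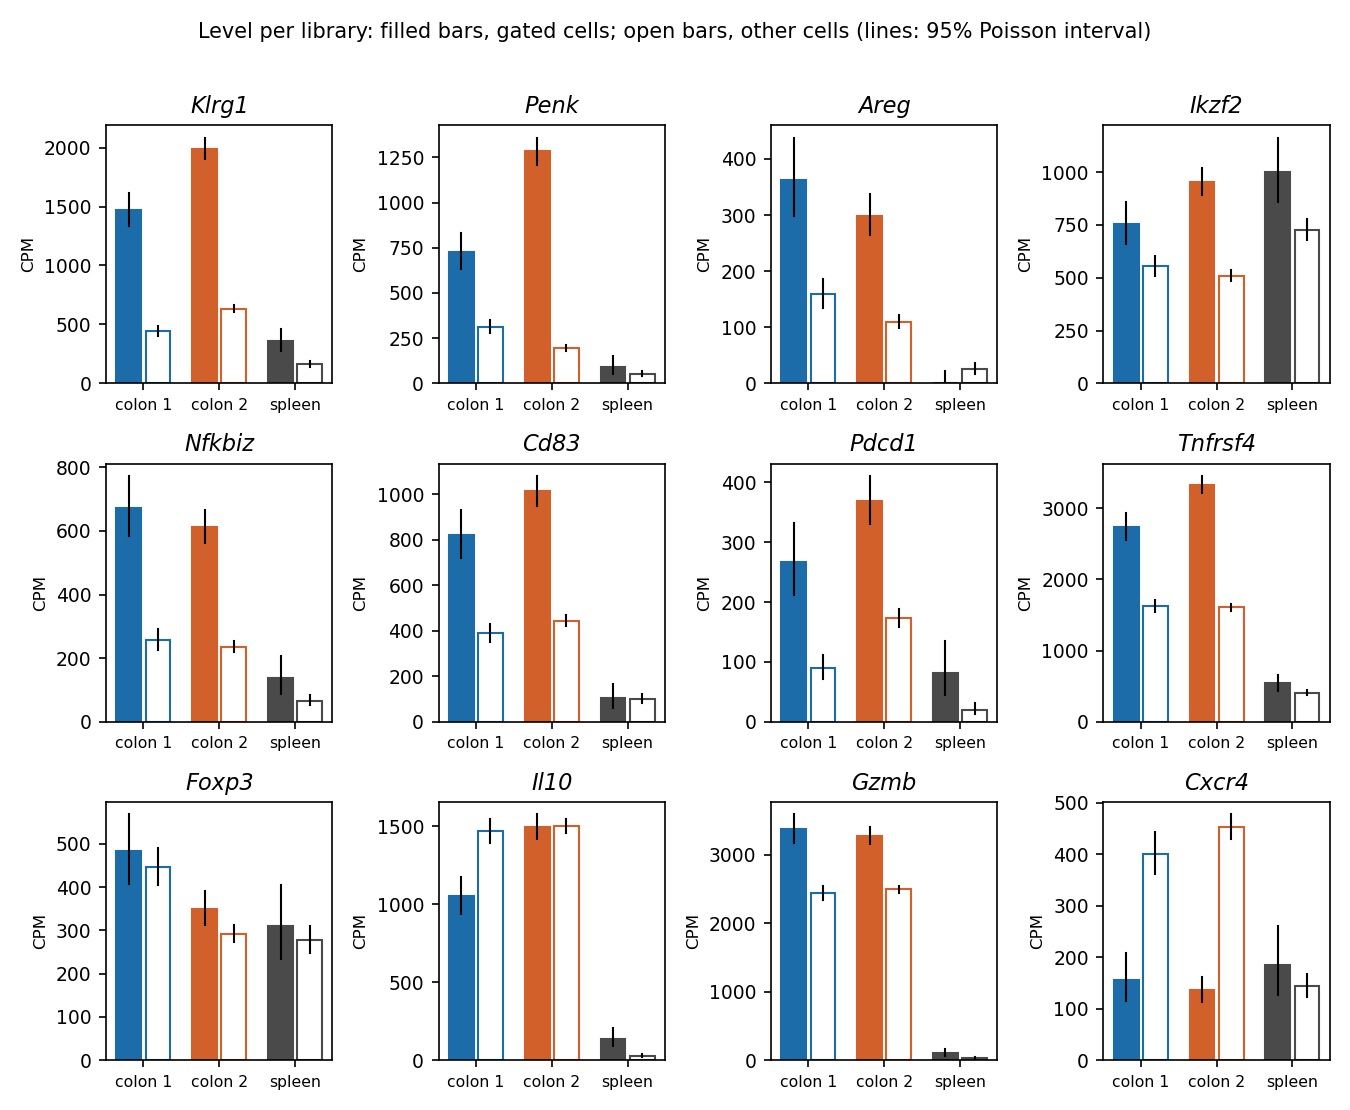
CPM of 12 genes (vertical axes, each starting at 0) in gated (filled bars) and other cells (open bars) of colon 1, colon 2 and spleen, with 95% Poisson intervals of counting error. Klrg1 is higher in the gated cells of every library, Cxcr4 is lower in those of both colon libraries, and Il10 and Gzmb are far higher in colon than in spleen whichever the gate.

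The gated cells varied among themselves. At 1000 UMIs per cell, Klrg1 had a UMI in 50.4% (41.7 to 59.01) of the gated cells of colon 1 and 66.3% (61.4 to 71.01) of those of colon 2, against 21.4% and 24.1% of the other colon cells. Without thinning, 60.6% and 75.8% of the gated cells held one. The share for Ikzf2 was 43.1% (34.6 to 51.8) and 48.8% (43.8 to 53.9), and for Areg 20.4% (14.03 to 28.2) and 19.02% (15.2 to 23.3). Of the 4 markers, 0 were found in 34 thinned cells of colon 1 and 58 of colon 2, that is in 24.8% (17.8 to 32.9) and 14.9% (11.5 to 18.8). Among the other colon cells these shares were 52.9% (48.2 to 57.4) and 51.5% (48.8 to 54.2). All 4 were found in 1 gated cell of colon 1 and 7 of colon 2.

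Penk was concentrated in few cells. It had a UMI in 15 gated cells of colon 1, or 10.9%, and in 72 of colon 2, or 18.5%, with up to 71 UMIs in a cell of colon 1. The 14 and 39 gated cells with the most Penk held 99.5% and 92.8% of its UMIs. For Klrg1 the same number of cells held 40.4% and 34.5%, and for Areg 64.2% and 59.6%. Penk was not alone in this. For Myc, Dgat2 and Slco2b1, described below, the shares were 97.3% and 95.3%, 100% and 85.2%, and 100% and 100%. Counting intervals take UMIs as independent and so leave out this spread between cells.

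The levels also differed by which gating transcript a cell held. Penk was at 1299.9 and 1922.4 CPM in gated cells with both transcripts and at 56.2 and 737.2 in those with Gata3 alone. Few cells carried these Penk levels: 10 of 63 and 44 cells with both transcripts held a UMI, and 4 of 54 and 18 with Gata3 alone. Klrg1 stood at 1635.1 and 2225.4 CPM against 1198.8 and 1755.7, and Areg at 348.9 and 366.7 against 234.1 and 225.01. Cells with Il1rl1 alone held the most Cd83, a surface protein gene of activated cells, at 1228.5 and 1424.5 CPM, against 543.2 and 757.9 with Gata3 alone. Cells with both transcripts were also deeper, with a median of 1889 and 2279 UMIs against 1647 and 2031 with Gata3 alone, and its part in these levels was not tested.

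Levels on either side of the gate describe where the threshold fell. Colon cells that met the other limits were split by their UMIs of Gata3 and Il1rl1 together. Cells just outside, with 1 UMI, numbered 62 in colon 1, and cells just inside, with 2 UMIs, numbered 27 in colon 1 and 80 in colon 2. Klrg1 stood at 939.6 and 1010.8 CPM just outside and at 1675.8 and 1137.1 just inside, against 344.1 and 408.3 in cells with 0 UMIs. Cells with 1 UMI thus already held more Klrg1 than cells with none. For Areg the levels were 176.7 and 153.4 CPM just outside, 153.9 and 129.3 just inside, and 404.1 and 388.2 in cells with 5 or more UMIs. Penk in colon 1 was at 51.3 CPM just inside, from 3 UMIs, and 1092.7 at 5 or more UMIs, while in colon 2 it was at 851.4 and 1638.8. In cells with 0 UMIs of the pair, Areg stood at 140.1 and 95.1 CPM and Penk at 188.02 and 82.03. Penk in colon 1 was thus lower just inside the gate than in cells with none. For Areg the intervals just inside overlapped those at 0 UMIs in both libraries.

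**Figure D2:**
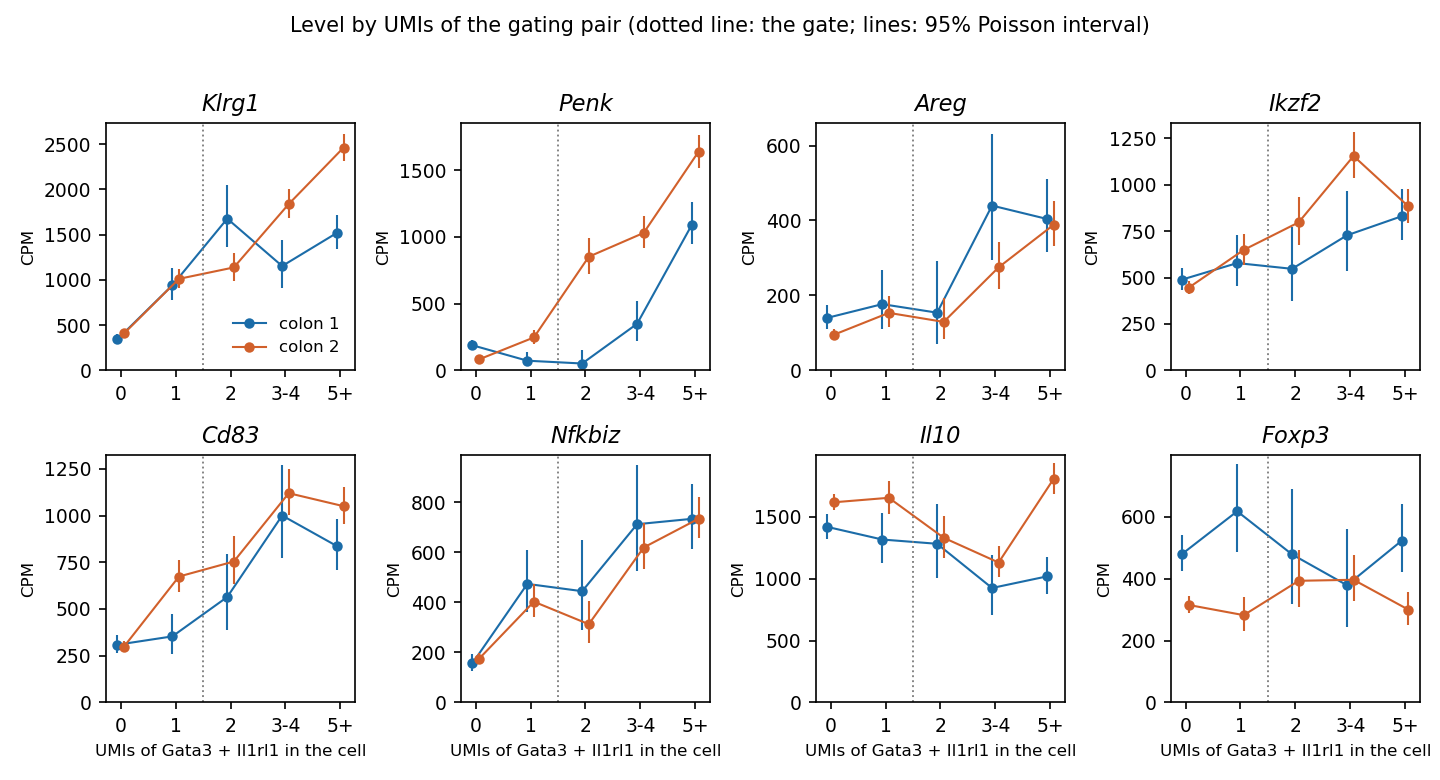
CPM of 8 genes (vertical axes) in colon cells that met the other limits, by their UMIs of Gata3 and Il1rl1 together (horizontal axes), for colon 1 and colon 2 with 95% Poisson intervals; the dotted line is the gate. Klrg1, Cd83 and Nfkbiz stand higher in every group with at least 1 UMI than at 0 in both libraries, and Foxp3 shows no such order.

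The comparison of gated with all other colon cells asks what sets these Tregs apart within the same tissue and preparation. Among 2992 genes with at least 50 CPM in the gated or in the other cells of both libraries, 33 (1.1%) were at least 2-fold higher in both and 19 (0.635%) at least 2-fold lower. The gating genes were left out. A narrower comparison took the colon cells that met the other limits but held fewer than 2 UMIs of the gating pair. Against these, 37 of 2988 genes (1.24%) were higher and 19 (0.636%) lower, and 31 genes (93.9% of the 33, 83.8% of the 37) and 15 (78.9% of each 19) were shared with the first comparison. Both comparisons share the gated cells, so this overlap is no separate evidence. The counts rest on the demand that both libraries pass: by colon 2 alone 1.91% of genes were higher and 2.17% lower, and by colon 1 alone 5.72% and 6.46%.

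The 15 highest genes are given in turn, with Klrg1 described above. Myc, a transcription factor gene of growth (chromosome 15, 61985391 to 61990374, plus strand), stood at 123.3 CPM in the gated cells of colon 1 and 189.3 in those of colon 2, against 16.9 and 36.2 in the others. Its log2 ratio was 2.86 (1.98 to 3.81) and 2.39 (2.03 to 2.75), from UMIs in 15 and 47 gated cells. In spleen, Myc was at 149.9 CPM in gated and 105.7 in other cells. Dgat2, which encodes the enzyme of the last step of triglyceride synthesis (chromosome 7, 99153658 to 99182719, minus strand), stood at 126.6 and 157.2 CPM in gated cells against 24.3 and 24.1, at log2 ratios of 2.38 (1.59 to 3.19) and 2.71 (2.29 to 3.14). Dgat2 UMIs lay in 14 and 60 gated cells. Both genes were low in the other colon cells of each library.

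Slco2b1, an organic anion transporter gene, was at 63.3 and 75.3 CPM in gated cells and at 2.12 and 15.1 in the others. Its ratio in colon 1, 4.90 (2.85 to 8.05), rested on 2 UMIs in the other cells, and spleen held none. Irg1, the gene of the enzyme that makes itaconate, was at 73.3 and 76.4 CPM against 20.1 and 15.7. Egln3, which encodes a prolyl hydroxylase of the hypoxia response, was at 159.9 and 290.1 CPM against 56.1 and 95.7, at log2 ratios of 1.51 (0.92 to 2.10) and 1.60 (1.35 to 1.85). The levels of Irg1 and Egln3 in the gated cells thus lay above those of the other cells in each library, at low counts for Irg1. Nfkbiz, the gene of the atypical nuclear NF-kB inhibitor IkB-zeta (chromosome 16, 55811375 to 55838899, minus strand), was at 673.01 and 611.2 CPM against 258.2 and 234.99, at log2 ratios of 1.38 (1.11 to 1.66) and 1.38 (1.22 to 1.54).

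Pdcd1lg2, the gene of the PD-1 ligand PD-L2, was at 163.3 and 166.1 CPM in gated cells against 55.03 and 64.6, log2 ratios of 1.57 (0.98 to 2.16) and 1.36 (1.04 to 1.68). The rest of the 15 were Pxdc1, Nck2, an adaptor gene of receptor signalling, Ky, Dot1l, a histone methyltransferase gene, Plac8, Gnaq, a G protein gene, and Wisp1, the gene of a secreted matrix protein. Their log2 ratios lay between 1.22 for Wisp1 in colon 1 and 2.03 for Pxdc1 in colon 2. Each of these 7 stood between 56.6 and 233.2 CPM in the gated cells, and the lower interval ends of Dot1l, Gnaq and Wisp1 in colon 1 were 0.65, 0.48 and 0.22.

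**Figure D3:**
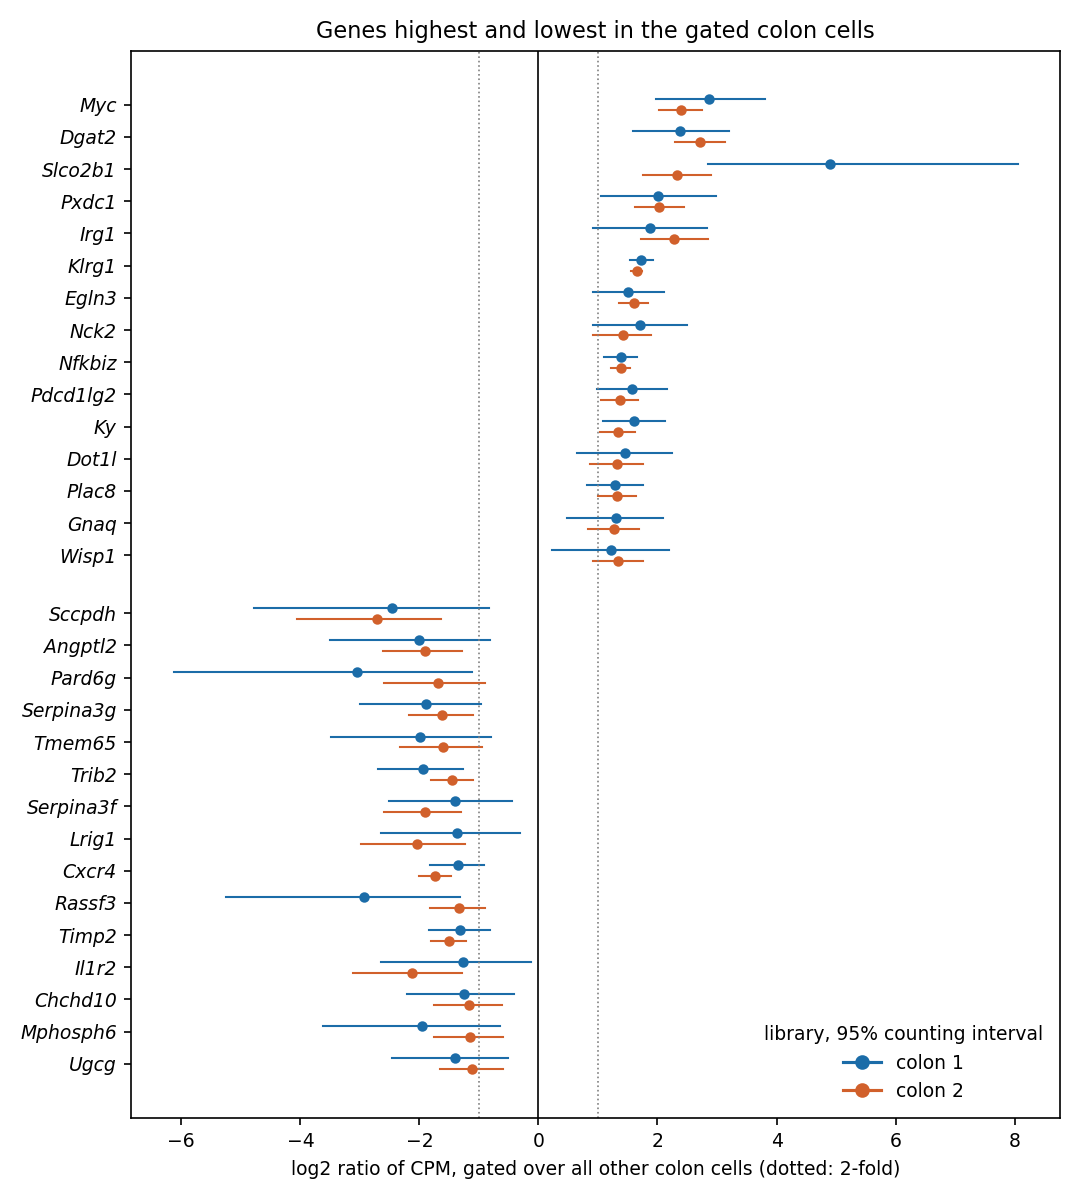
Log2 ratio of CPM in gated over all other colon cells (horizontal axis) for the 15 highest and 15 lowest named genes, in both colon libraries with 95% intervals of counting error; dotted lines mark 2-fold. All 30 genes lie past 2-fold in both libraries, which the choice of genes fixes, and colon 2, with more cells, has the shorter intervals.

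The 15 lowest genes follow. Cxcr4, the receptor gene of the chemokine CXCL12 (chromosome 1, 128588199 to 128592293, minus strand), was at 156.6 CPM in the gated cells of colon 1 and 136.2 in those of colon 2, against 400.04 and 452.6 in the other colon cells. The gated cells held less in both libraries, at a log2 ratio of -1.35 (-1.82 to -0.91) and -1.73 (-2.01 to -1.47), while in spleen it was 0.36 (-0.24 to 0.92). Timp2, a metalloproteinase inhibitor gene, was at 123.3 and 117.4 CPM against 305.9 and 332.7. Trib2, which encodes a pseudokinase (chromosome 12, 15791727 to 15816922, minus strand), was at 63.3 and 86.4 CPM against 243.4 and 235.3, at log2 ratios of -1.94 (-2.70 to -1.27) and -1.45 (-1.80 to -1.11). Trib2 was lower in the gated cells of spleen too, at -1.22 (-2.31 to -0.30).

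Serpina3g and Serpina3f, serine protease inhibitor genes side by side on chromosome 12, had log2 ratios of -1.89 and -1.40 in colon 1 and -1.61 and -1.91 in colon 2. They belong to a family of close copies, so reads may have been split between them. Angptl2, the gene of a secreted angiopoietin-like protein, was at 19.99 and 24.4 CPM against 80.4 and 91.4. Il1r2, the gene of a decoy receptor of interleukin-1 that lies near Il1rl1 on chromosome 1, was at 23.3 and 13.3 CPM against 56.1 and 58.2, and against cells that differ in the gating pair alone its log2 ratio was -0.58 in colon 1 and -2.16 in colon 2. The others were Sccpdh, Pard6g, a cell polarity gene, Tmem65, Lrig1, a brake of growth factor receptors, Rassf3, Chchd10, a mitochondrial protein gene, Mphosph6 and Ugcg, the gene of glucosylceramide synthase. Their log2 ratios lay between -3.05 for Pard6g in colon 1 and -1.11 for Ugcg in colon 2. Several of these rested on few UMIs, such as 3 for Sccpdh and 2 for Pard6g in the gated cells of colon 1.

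Genes of TNF receptors and NF-kB were higher as a group. Of 14 measured genes, all 14 were above 0 in both libraries, where 24.8% of all 2992 genes were, but 1, Cd83, passed 2-fold in both. Their median log2 ratio was 0.77 in colon 1 and 0.73 in colon 2, where that of all genes was -0.04 and -0.06. This gene list, like those below, was chosen with earlier results of these data known. List members entered by their UMIs over the colon cells and the 2992 genes by their CPM, so the sets are unlike. The comparison with all genes thus describes the list and is no separate check of it. Cd83 (chromosome 13, 43784775 to 43803132, plus strand) stood at 819.6 and 1012.03 CPM in gated cells against 389.5 and 443.5, at log2 ratios of 1.07 (0.83 to 1.31) and 1.19 (1.07 to 1.31). Nfkb1, which encodes an NF-kB subunit, was at 752.97 and 854.8 CPM against 346.1 and 444.5, at log2 ratios of 1.12 and 0.94. The receptor genes Tnfrsf4 (OX40) and Tnfrsf9 (4-1BB) had log2 ratios of 0.75 and 0.79 in colon 1 and 1.05 and 0.90 in colon 2, and Traf1, whose product binds their tails, 1.25 and 0.70. In spleen, gated over other cells gave 0.05 (-0.76 to 0.78) for Cd83, -0.75 (-1.37 to -0.19) for Nfkb1, -0.49 (-1.54 to 0.41) for Traf1, 0.42 (0.08 to 0.74) for Tnfrsf4 and 0.62 (0.16 to 1.05) for Tnfrsf9, so that these 5 did not share a direction there.

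The 250 bases before the start of the 33 higher genes were searched for words of NF-kB and of GATA factors. RefSeq promoters (GRCm38.p6) matched 21 of the 33. Klrg1, Penk, Myc, Nfkbiz and Cd83 were among those without a match, so no window of these genes was searched. The kappa B word GGGNNNTTCC, read on both strands and with N for any base, was found in windows of 4 of these genes, or 19%, and in 5.31% of all 27025 genes with a window. These genes have more windows each, and by window the shares were 11.4% of 35 and 4.65% of 32851. The GATA word AGATAA, or the same with T first or G last, read the same way, was found in 3 of the 21, or 14.3%, and in 29.7% of all genes, and by window in 11.4% and 26.5%. Among the 19 lower genes, 15 matched, with the kappa B word in 1 and a GATA word in 3. The 4 kappa B matches of the higher genes are shown 5′ to 3′ on the gene's strand, with the match in capitals. Egln3 and Ky belong to the 15 highest genes. Nfkbie, the gene of an NF-kB inhibitor, and Bcl2l1, a survival gene, are also among the 33 and are named because their windows hold the word. The shares over all genes include genes below the 50 CPM that the called genes had to reach, so the sets are unlike. Matches are a description and were not tested as binding sites.
Ky, chr9:102505888-102505935, plus strand: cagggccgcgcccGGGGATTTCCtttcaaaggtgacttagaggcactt
Egln3, chr12:54203913-54203972, minus strand: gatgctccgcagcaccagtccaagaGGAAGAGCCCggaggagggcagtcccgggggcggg
Nfkbie, chr17:45555569-45555628, plus strand: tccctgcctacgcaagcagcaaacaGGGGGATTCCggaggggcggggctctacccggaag
Bcl2l1, chr2:152830901-152830960, minus strand: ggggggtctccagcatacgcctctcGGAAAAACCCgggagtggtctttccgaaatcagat

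Genes of the path below ST2 did not share a direction. Of 9 genes of IL-33 receptor signalling, 0 passed 2-fold in both libraries, and the median log2 ratio was 0.48 in colon 1 and -0.20 in colon 2. Irak2 and Irak4, kinase genes of this path, were at 1.24 and 1.24 in colon 1 and at -0.36 and -0.89 in colon 2. Tollip, an adaptor gene that restrains it, was at 0.81 and -0.57, and Traf6 at 1.07 and -0.06. Il1rap, the gene of the accessory chain, had no ratio in colon 1, so the median there leaves it out. The difference between the libraries was not tested.

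Secreted factors split. Of 13 measured genes for repair and suppression, 2, Areg and Penk, were at least 2-fold higher in both libraries and 0 lower. Of all genes, 1.1% were higher and 0.635% lower in this way. The median log2 ratio of the list was 0.17 and -0.04. Il10, whose cytokine restrains inflammation, stood at 1049.5 and 1493.7 CPM in gated cells against 1467.9 and 1502.7, at log2 ratios of -0.48 (-0.67 to -0.31) in colon 1 and -0.01 (-0.10 to 0.08) in colon 2. Gzmb, which encodes granzyme B, was at 3371.7 and 3275.2 CPM against 2434.1 and 2490.2, and against cells that differ in the gating pair alone its log2 ratio was 0.26 and 0.20. Ebi3, a cytokine subunit gene, was at 1.84 (1.16 to 2.53) and 0.79 (0.40 to 1.17), and Nt5e, which encodes the adenosine-making enzyme CD73, at -1.40 (-2.12 to -0.74) and -0.55 (-0.78 to -0.32).

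Of 13 Treg identity genes, 0 passed 2-fold in both libraries in either direction, with a median log2 ratio of 0.11 and 0.26. Foxp3 stood at 483.1 and 349.9 CPM in gated cells and 446.6 and 291.9 in other colon cells, at log2 ratios of 0.11 (-0.17 to 0.39) and 0.26 (0.07 to 0.45). Il2ra, which encodes CD25, was at 0.47 (0.24 to 0.70) and 0.66 (0.55 to 0.77), and Ctla4, which competes with CD28 for its ligands, at -0.11 (-0.23 to 0.01) and -0.35 (-0.43 to -0.27). Cd4 was at -0.77 (-1.05 to -0.49) and -0.41 (-0.54 to -0.29), so that the gated cells held less in both. Nrp1, a receptor gene of many thymus-derived Tregs, had 3 UMIs in the gated cells of colon 1 and 51 in those of colon 2, with log2 ratios of -2.38 (-4.70 to -0.74) and 0.24 (-0.25 to 0.71).

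Among 15 transcription factors of effector and tissue Tregs, 0 passed 2-fold in both libraries, and the median log2 ratio was -0.07 and -0.03. Id2, an inhibitor of E proteins, was at 1515.9 and 1516.9 CPM against 971.5 and 929.9, at log2 ratios of 0.64 (0.48 to 0.81) and 0.71 (0.61 to 0.80). Nfil3, a repressor gene, was at -1.05 and -0.83, and Rora, a nuclear receptor gene of tissue lymphocytes, at 1.52 (0.12 to 2.89) and 0.45 (-0.30 to 1.16) from 10 and 24 gated UMIs.

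Of 12 inhibitory and costimulatory receptors, 2 were higher and 0 lower, where 1.1% and 0.635% of all genes were. The median of the list was 0.02 and 0.01. Pdcd1, the gene of PD-1 (chromosome 1, 94038305 to 94052553, minus strand), stood at 266.5 and 368.7 CPM in gated cells against 89.96 and 173.1, at log2 ratios of 1.57 (1.11 to 2.02) and 1.09 (0.89 to 1.29), and Cd200r1, another inhibitory receptor gene, was at 1.05 (0.22 to 1.85) and 1.54 (1.11 to 1.97). In contrast, Havcr2, the gene of TIM-3, was at -0.93 and -1.23. Of 18 trafficking receptors, 0 were higher and 1, Cxcr4, lower, beside the same shares of all genes, with a median of -0.26 and 0.02. Ccr8, which encodes a receptor of the chemokine CCL1, was at 2.65 (1.43 to 3.99) and 0.90 (0.08 to 1.69) from 18 and 22 gated UMIs. Cxcr3, a receptor gene of type 1 T cells, stood at 73.3 CPM in the gated cells of colon 1 and 24.4 in those of colon 2, against 89.96 and 116.2, so that its log2 ratio was -0.30 (-1.04 to 0.39) and -2.25 (-2.95 to -1.63).

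Genes of resting, follicular and newly stimulated T cells gave mixed counts. Of 12 resting and circulating T cell genes, 0 were higher and 2 lower, with a median of -0.32 and -0.63. The 2 were S1pr1, which lets cells leave tissue, at log2 ratios of -1.77 (-3.03 to -0.73) and -1.11 (-1.57 to -0.67), and Tcf7, a factor of resting cells, at 2 and 2 gated UMIs. The gate itself limits Ccr7, a gene of the same state, and against cells that differ in the gating pair alone the median was 0.20 and -0.40. Of 7 follicular T cell genes, 5 were below 0 in both libraries, as were 36.97% of all genes, and 1, Pdcd1, was past 2-fold higher, with a median of -0.73 and -0.92, and the gate limits Bcl6 of that state. Izumo1r, the gene of folate receptor 4, was at -0.73 and -0.92, and Cxcr5 at -0.67 and -0.99. Of 9 early genes of T cell receptor signalling, 1, Myc, was higher, with a median of 0.00 and 0.43, Nr4a1 was at 0.96 and 0.67, and Rel, an NF-kB subunit gene, at 0.97 and 0.99.

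**Figure D4:**
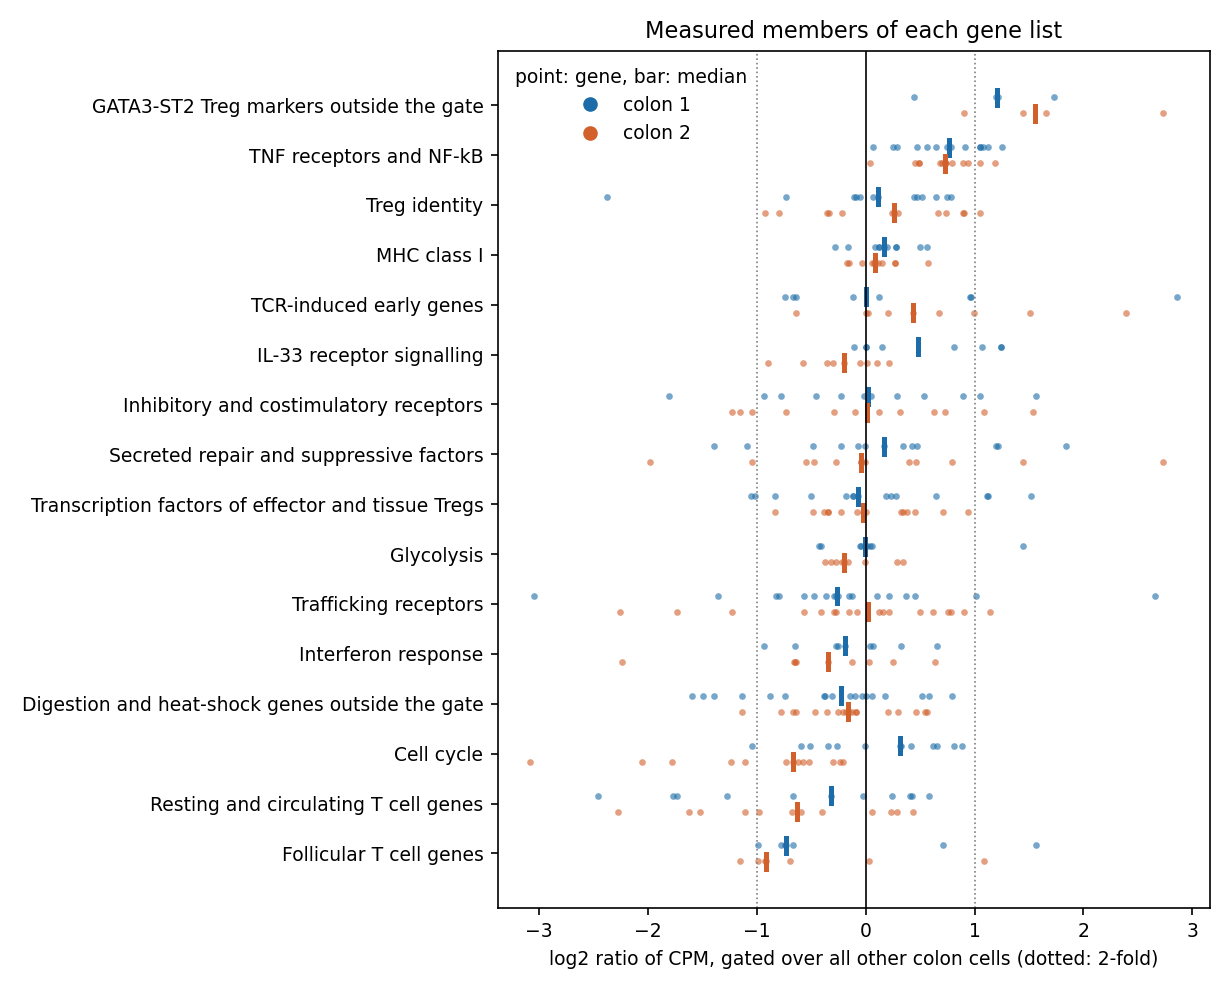
Log2 ratio of CPM in gated over all other colon cells (horizontal axis) for each measured member (points) of 16 gene lists, with the list's median (bars), in colon 1 and colon 2. The medians of the markers and of TNF receptors and NF-kB lie above 0.7 in both libraries, while cell cycle and IL-33 receptor signalling have medians of opposite sign.

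Digestion and heat-shock genes bear on the gate, since it removed cells rich in 4 of them. Of 18 such genes outside the gate, 0 passed 2-fold in both libraries, with a median of -0.23 and -0.17 against all other colon cells and 0.03 and 0.04 against cells that differ in the gating pair alone. Fos was at 79.96 and 143.9 CPM against 242.4 and 246.4 in all other cells, at log2 ratios of -1.60 and -0.78, and of -1.17 and -0.55 in the narrower comparison. Of 13 cell cycle genes, 1, Ccnb2, with 2 and 4 gated UMIs, was lower, as were 0.635% of all genes. The median of the list was 0.31 in colon 1 and -0.67 in colon 2. No gene passed 2-fold in both libraries among 9 interferon response genes, with a median of -0.19 and -0.35 and Ifi27l2a at -0.19 and -0.35, 9 glycolysis genes, with a median of 0.00 and -0.20 and Pkm at -0.43 and -0.37, and 11 MHC class I genes, with a median of 0.17 and 0.08. H2-Q7, a class I gene with close copies among which reads may be split, was at 0.50 and 0.57.

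Markers of other cells were looked at by list. For type 2 helper T cells and innate lymphoid cells, which share GATA3, 0 of 5 measured genes passed 2-fold in both libraries. Il4 and Cd40lg of these had no ratio in colon 1. The whole list summed to 179.9 and 324.4 CPM in gated cells and 231.8 and 256.4 in the other colon cells. The gated cells were thus lower in colon 1 and higher in colon 2. Il5, Il9 and Ptgdr2 were at 0 in the gated cells. Calca, a neuropeptide gene of that list, had 5 and 36 gated UMIs, in 1 and 13 cells, at a log2 ratio of 0.81 (-1.12 to 2.54) and 2.04 (1.29 to 2.80). For colon epithelium 1 of 9 genes was measured, the adhesion molecule gene Epcam, at 76.6 and 98.5 CPM in gated cells against 15.9 and 44.2, at log2 ratios of 2.27 (1.27 to 3.31) and 1.16 (0.75 to 1.56). The epithelial list summed to 79.96 and 98.55 CPM against 23.3 and 52.9, and Krt8, Krt20, Car1, Muc2, Phgr1, Lgals4 and Fabp2 were at 0 in the gated cells. Epcam was measured in spleen as well, at 46.1 CPM in gated and 41.7 in other cells.

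In colon 1, the B cell list summed to 129.9 CPM in gated and 48.7 in other cells, with H2-Eb1 at 23 UMIs in 3 gated cells and 1 UMI in the others, and in colon 2 it summed to 118.5 and 101.8. Ms4a1, Pax5, Ebf1 and Blk of this list were at 0 in the gated cells. The lists for CD8 T and NK cells, other helper T cells and plasma cells had 0 members past 2-fold in both libraries. Only 4 of 10, 2 of 8 and 1 of 5 of their genes were measured. For macrophages and dendritic cells, granulocytes and mast cells, and stroma and endothelium the count was 0 as well. There 2 of 10, 1 of 8 and 1 of 8 genes were measured. So few genes say little about RNA of other cells. Cells with 2 or more UMIs over the lists for B and plasma cells, macrophages and dendritic cells, granulocytes and mast cells, epithelium, and stroma and endothelium made up 22.6% of the gated and 20.3% of the other cells of colon 1, and 28.3% and 23.7% in colon 2. Without them 29 genes were higher and 21 lower, of which 25 and 14 were among the 33 and 19. The part of the other lists in the results was not tested.

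Cells with 2 or more UMIs of the gating pair that failed another limit show what the gate removed. Of colon cells with 2 or more UMIs, 18 and 86 failed only the limit on Fosb and heat-shock genes, 7 and 27 only that on Ccr7 and Bcl6, and 1 and 0 both. Klrg1 stood at 2102.7 and 2205.3 CPM in those over the stress limit, against 1469.3 and 1990.8 in the gated cells, and at 124.2 and 997.4 in those over the limit on Ccr7 and Bcl6. Penk was at 2930.96 and 724.2 CPM over the stress limit and at 1076.2 and 1544.8 over the other, and 2 cells carried each of these levels in colon 1. Gzmb was lower over the limit on Ccr7 and Bcl6, at 248.3 and 1179.8 CPM, against 3371.7 and 3275.2 in the gated cells.

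The same gate took 77 spleen cells, 12.6% (10 to 15.4) of those with at least 1000 UMIs. Gata3 stood at 1343.4 CPM in these cells and Il1rl1 at 138.4, since 62 of the 77 held Gata3 alone and 12 both transcripts. Of 3662 genes, 12.8% were at least 2-fold higher in the gated cells of both colon libraries than in those of spleen and 13% lower. This split depends on the scaling: with TMM factors, which balance the bulk of genes, 17.4% were higher and 8.38% lower, and the median log2 ratio of all genes moved from -0.22 to 0.06. With totals that leave out ribosomal protein genes, 10.6% were higher and 17.5% lower. Tissue and way of dissociation cannot be told apart here, and the ratios of colon 1 and colon 2 share their spleen cells.

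Areg had 0 UMIs in the gated spleen cells, where 3 UMIs would be 17.3 CPM, so that it was at least 20.996-fold and 17.3-fold higher in gated colon cells. By the same floor, 0 of 77 cells allows up to 3.90% of cells with an Areg UMI, which is no limit on cells that express it. Penk was at 92.2 CPM and Klrg1 at 357.5 in gated spleen cells, 7.87-fold and 13.9-fold and 4.11-fold and 5.57-fold below colon 1 and colon 2. Most gated spleen cells held Gata3 alone, and gated colon cells of that kind held Penk at 56.2 and 737.2 CPM, in 4 and 18 cells. In colon 1, such cells were thus not above the gated spleen cells in Penk. Their Klrg1 stood at 1198.8 and 1755.7 CPM. Gzmb, at 103.8 CPM, and Il10, at 138.4 CPM, were lower in gated spleen cells by factors of 32.5 and 31.6 and of 7.58 and 10.8. All 14 genes of TNF receptors and NF-kB were at least 2-fold higher in the gated colon cells. Summed, this list was also higher in the other colon cells, at 9035.8 and 9487.7 CPM, than in the other spleen cells, at 3212.4. Of the resting list, 8 of 12 were lower and 1 higher. Its sum was likewise lower in the other colon cells, at 1144.03 and 1168.6 CPM, than in the other spleen cells, at 2721.04. These differences between the tissues were thus not particular to the gated cells. Ikzf2, at log2 ratios of -0.41 and -0.08 over spleen, and Myc, at -0.28 and 0.34, did not pass 2-fold in either library.

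Spleen also has its own contrast of gated with other cells. Of the 33 genes higher in gated colon cells, 25 had at least 10 UMIs in spleen, and 19 of these were also above 0 there. For 2 of the 25 no ratio was set, because a count of 0 lay at the floor of 3 counts. Of the 19 lower genes, 17 had 10 UMIs, and 10 of them were below 0 in spleen. Among all 2928 such genes with a ratio, 52.2% were above 0 in spleen and 47.8% below. Klrg1 at 1.14 (0.70 to 1.57), from UMIs in 15 gated cells, Pdcd1lg2 at 1.87 (0.91 to 2.78), from 6, and Nfkbiz at 1.05 (0.32 to 1.74), from 11, were higher in the gated cells of spleen as in those of colon. Pdcd1 was at 1.98 (0.91 to 3.02), but 12 of its 14 gated UMIs lay in 1 cell, and the 62 gated spleen cells without a Klrg1 UMI stood at 14.4 CPM against 20.4 in the other spleen cells. Il10 was at 2.31 (1.48 to 3.14) in spleen, where colon gave -0.48 and -0.01. Its 24 gated spleen UMIs lay in 3 cells, 20 of them in 2 cells, and the difference between the tissues was not tested.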

How the data were processed

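The authors deposited UMI counts per gene and cell, in whole numbers, from inDrops libraries. Per the submitters' processing notes, TopHat2, SAMtools and mm10 were used, with no version given. All columns were used. The gate held 526 colon cells, 137 of 610 in colon 1 and 389 of 1744 in colon 2, and 77 of 613 spleen cells.

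The members and the gene lists were chosen with earlier results of these data known. For each group of cells the counts of a gene were added up and divided by the group's total (CPM). A gene entered where it reached 50 CPM in the gated or in the compared cells of both colon libraries, and was called at a 2-fold difference in both. Log2 ratios have 95% exact conditional binomial intervals, levels Poisson intervals and shares Clopper-Pearson intervals. UMIs were taken as independent, so the spread between cells is left out. A count of 0 was set to a floor of 3 counts per group, and no ratio was given where both groups lay at or under it or where the floor would turn the direction. List members were measured where they had 30 UMIs over the colon cells. For shares of cells, each cell was first thinned to 1000 UMIs.

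Genes named are the 15 highest and 15 lowest by the smaller of both ratios, leaving out gating, T cell receptor, immunoglobulin, mitochondrial and ribosomal genes and unnamed gene models, 10 genes fixed by name, and up to 4 members of each list with the largest mean ratio in size. The other genes named from a list are its called members. No doublet caller was run. Gene positions are from GENCODE vM21. The calculation was tested on simulated counts and used Python 3.11.15, numpy 2.4.6, scipy 1.17.1, pandas 2.3.3 and matplotlib 3.10.9. Alternatives changed the scaling, the CPM minimum, the weight of cells, the gate, the compared cells, the deepest cells, cells with markers of other types, and the libraries.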

Additional observations from a re-analysis of the deposited data

Results flagged for a closer look

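Areg, Hsph1, Il2ra and Nfkb1 had log2 ratios of gated over other cells in spleen that were opposite in sign to those of both colon libraries, and these differences were not tested. Areg was at -0.53 in spleen, with its 0 gated UMIs set to the floor, against 1.19 in colon 1 and 1.45 in colon 2. Hsph1, a heat-shock chaperone gene, was at 1.48 in spleen against -1.5 and -0.66. Il2ra was at -0.48 against 0.47 and 0.66, and Nfkb1 at -0.75 against 1.12 and 0.94. Gpr55, a receptor gene of lysophospholipids, differed between the colon libraries, at -3.05 in colon 1 and 1.14 in colon 2, which was not tested either.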

How the results depend on the processing

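Over 13 alternatives, no named gene that was called changed its direction. Of the values of named genes, 99.3% lay within the intervals of those reported and 0.712% outside them. Of the list medians, 80.8% moved by less than the spread between both colon libraries, and that of plasma cells could not be computed with the thinned gate or without cells holding other types' markers. The share of colon cells in the gate was 32.6% in colon 1 and 31.5% in colon 2 at 1 or more UMIs of Gata3 and Il1rl1, 18% and 17.7% at 3 or more, and 16.1% and 15.8% with the gate read on cells thinned to 1000 UMIs. The counts of called genes follow as percentages of the genes tested. With a minimum of 20 CPM, 0.871% (49 genes) were higher and 1.30% (73) lower in gated than in other colon cells, so that most calls were lower, 1.06% higher and 1.47% lower against cells that differ in the gating pair alone, and 12.5% higher and 15.6% lower against spleen. With 100 CPM and fewer genes these were 1.21% higher and 0.254% lower (19 and 4 genes), 1.44% and 0.438%, and 14.4% and 8.83%. At 1 or more UMIs, 0.667% were higher and 0.367% lower in gated colon cells (20 and 11 genes, of which 18 and 5 were among those reported), and 7.70% were lower against spleen. Against spleen, 8.38% were lower with TMM scaling, 17.5% with totals that leave out ribosomal genes and 19.5% with the thinned gate. Leaving out 1 colon library drops the demand that both pass: 1.91% to 5.72% were then higher and 2.17% to 6.46% lower, 2.24% to 6.47% and 2.56% to 6.98% against cells that differ in the gating pair alone, and 18.2% to 18.9% and 19.1% to 19.2% against spleen. The cause was not tested where none is named. Genes with few UMIs, above all in colon 1, have wide intervals. No paired analysis was possible because the replicate numbers only name cells and the result comes from no test.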
